A study of Mus musculus with 24 samples.

Results

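The potassium channel genes of the mouse were examined in 3 brain regions, with and without a tumour elsewhere in the body. The members were all genes whose symbol consists of Kcn, further letters and a closing number, apart from Kcnj8, which gave 91 of the 47643 symbols in the table of TPM, a transcript abundance corrected for gene length whose sum is equal for every library. They are pore-forming subunits, modifier subunits and auxiliary subunits of potassium channels. The libraries were bulk RNA sequencing of neocortex, cerebellum and hippocampus from male C57BL/6J mice aged 4 months. One group of mice had received LLC cells, which grew for up to about 3 weeks, and the control mice were mock-injected. The abbreviation LLC is not explained in the labels; it is the common name of the Lewis lung carcinoma line from mouse, whereas melanoma is named in the title of the series. Each of the 6 groups held 4 libraries (LLC 1 to 4, control 14 to 17), which the labels call biological replicates without saying which libraries share an animal, so the p-values measure the spread between these libraries.

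Potassium channels let potassium leave the cell along its gradient, which repolarises a neuron after an action potential and holds its resting potential. Voltage-gated (Kv) channels are built from 4 pore subunits of the same subfamily, and subfamilies differ in their speed and voltage range; calcium- or sodium-activated channels, inward rectifiers and 2-pore-domain leak channels make up the rest. Auxiliary subunits (Kv beta, Kv channel-interacting proteins, BK beta, KCNE) change trafficking and gating but form no pore. Neuron types are known to carry different sets of these genes.

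Marker sums separated cerebellum and hippocampus from the other regions: 10 cerebellar markers summed to 3469 TPM or more in every cerebellar library and to at most 133.8 TPM elsewhere, and 8 hippocampal markers to 299 TPM or more in hippocampus and at most 168 TPM elsewhere. The 8 neocortex markers did not separate neocortex (440.1 to 506 TPM) from hippocampus (440.03 to 488 TPM). Cerebellar LLC library 1 stood apart, with a cerebellar marker sum of 3469 TPM against 5912 to 6664 TPM in the controls, and an oligodendrocyte marker sum of 4950 TPM against 3050 to 3759 TPM. LLC number 4 also stood apart in each region: erythrocyte markers summed to 3785, 4281 and 3000.0 TPM in its neocortex, cerebellum and hippocampus, against 11940 to 15356, 14453 to 15614 and 7463 to 10700 TPM in the other LLC libraries and at most 1730 TPM in controls. Between 14368 and 14847 genes reached 1 TPM in a library, and the number of reads is unknown. In bulk tissue, fewer cells of a type and less RNA per cell cannot be told apart.

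Of the 91 members, 73 had a mean of at least 1 TPM over all libraries, 52 of at least 10 TPM and 10 of at least 100 TPM. The other 18 had a mean below 1 TPM. One, Kcnk16, was listed at 0 in all 24 libraries. Those of at least 100 TPM included Kcnab2, Kcnc1, Kcnk1, Kcnj10, Kcnt1, Kcna2, Kcnj9 and Kcnd2, which span every functional class except the modifier subunits. The summed level of the 91 genes was 3122 ± 35.1 TPM (SD, n = 4) in control neocortex, 3758 ± 86.1 TPM (SD, n = 4) in control cerebellum and 2789 ± 52.3 TPM (SD, n = 4) in control hippocampus. Among the 73, control levels were highest in neocortex for 26, in cerebellum for 30 and in hippocampus for 17.

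**Figure D1:**
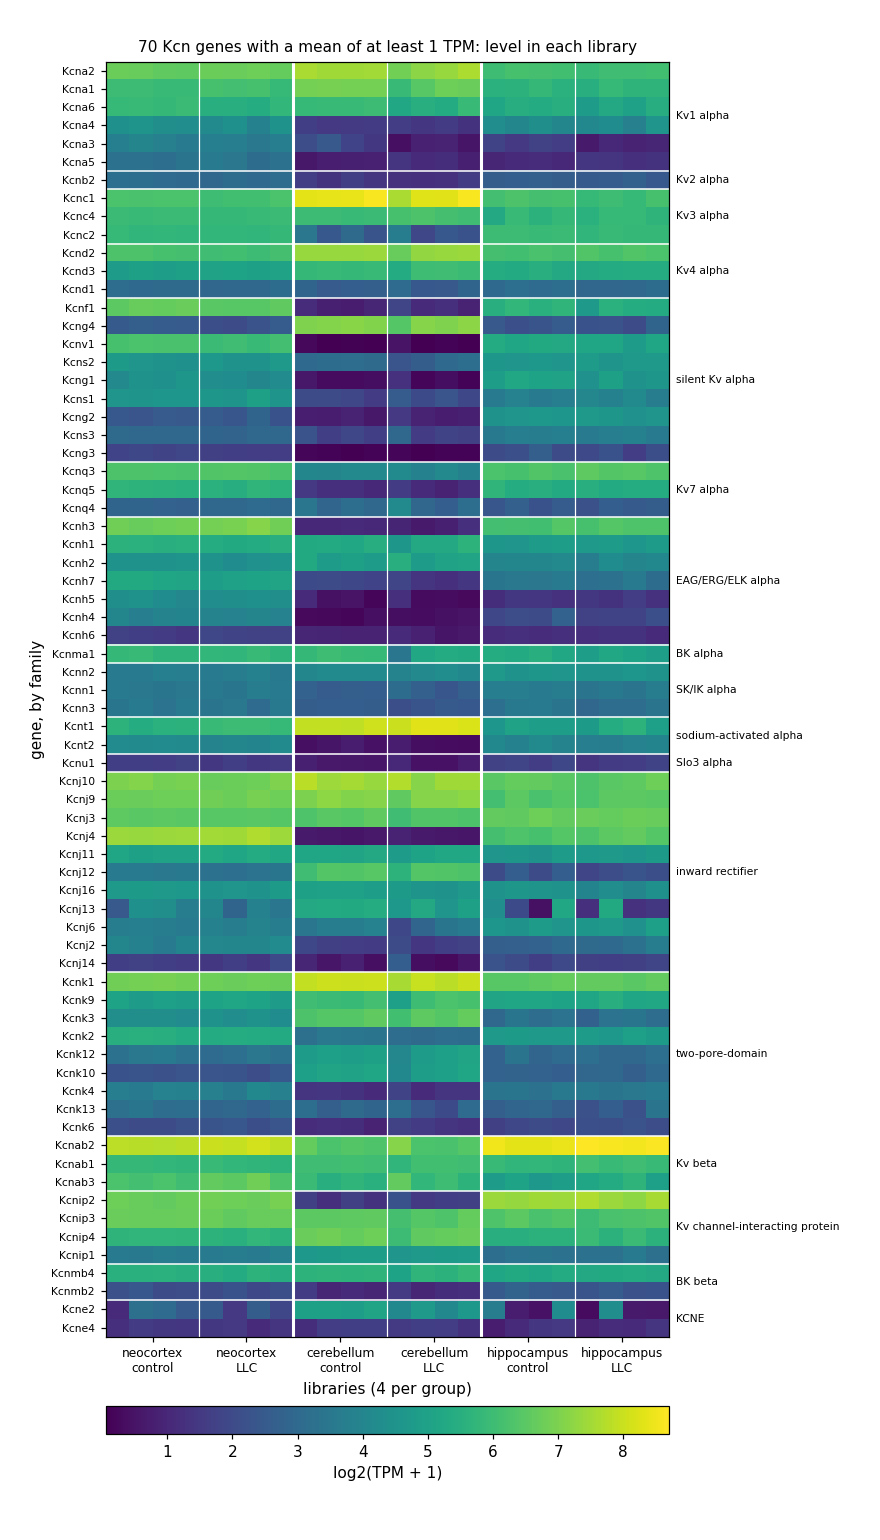
Heat map of log2(TPM + 1) for 70 Kcn genes with a mean of at least 1 TPM (rows, ordered by family) in each of the 24 libraries (columns, 4 per region and treatment). Colours differ most between regions: Kcnc1 and Kcng4 are bright in the cerebellar columns, Kcnj4, Kcnv1 and Kcnip2 are dark there, and Kcnj13 and Kcne2 vary between libraries of one group.

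The control regions differed in most members. With limma on log2(TPM + 1) over 12 control libraries and Benjamini-Hochberg adjustment over all genes tested, 25 of the 73 tested members were higher and 40 lower in cerebellum than in neocortex, 89% of the tested members against 84.6% of all genes tested (60% higher and 24.6% lower). Hippocampus against neocortex gave 16 higher and 42 lower members (79.5%, against 61.5% of all genes, 40.3% higher and 21.2% lower), and hippocampus against cerebellum gave 38 higher and 33 lower (97.3%, against 83%, 27.4% higher and 55.6% lower). The median difference over the members was -0.39 for cerebellum minus neocortex, against 0.30 over all genes tested, and -0.28 for hippocampus minus neocortex, against 0.08. These 3 comparisons share their control libraries. TPM shifts all genes together between regions: with median-ratio scaling the median over all genes became 0.01 for cerebellum minus neocortex, where 20 members were higher and 47 lower. That scaling gave 13 higher and 46 lower for hippocampus minus neocortex, and 38 higher and 29 lower for hippocampus minus cerebellum.

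Among the voltage-gated pore subunits, Kcnc1 and Kcnc2 ran in opposite directions; both encode subunits of the Kv3 subfamily, whose fast channels let neurons fire at high rates. Kcnc1 was listed at 320.4, 335, 341 and 387 TPM in control cerebellum, at 73.7 to 75.2 TPM in control neocortex and at 67.7 to 76.7 TPM in control hippocampus. It was 2.19 ± 0.05 higher in cerebellum than in neocortex on the log2(TPM + 1) scale (SE; limma adjusted p = 5.19e-14). Kcnc2 was listed at 10.2, 4.37, 7.17 and 3.96 TPM in control cerebellum and at 52.1 to 61.8 TPM in the control forebrain libraries, and was -2.96 ± 0.19 apart in the same comparison (SE; limma adjusted p = 1.98e-09).

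Other voltage-gated subunits were forebrain genes. Kcnh3, an ether-a-go-go-like pore subunit, was listed at 103 to 114 TPM in control neocortex, 66.8 to 85.03 TPM in control hippocampus and 1.03 to 1.13 TPM in control cerebellum. No library of one region overlapped with another region for Kcnh3, and the cerebellum minus neocortex difference was -5.74 ± 0.07 (SE; limma adjusted p = 3.01e-17). Kcnq5, an M-current subunit, differed by -4.39 ± 0.09 (SE; limma adjusted p = 1.54e-14). Kcnh5 and Kcna5 were neocortical, with control means of 18.7 and 8.79 TPM there against 1.53 and 1.09 TPM in hippocampus. By family sums, the ether-a-go-go group was lowest in cerebellum (76.1 ± 4.91 TPM, SD, n = 4) and highest in neocortex (249 ± 5.96 TPM, SD, n = 4), while Kv1 and Kv4 sums were highest in cerebellum, at 364 ± 6.88 and 228 ± 4.25 TPM (SD, n = 4). Single genes of these families moved both ways. In cerebellum against neocortex, 2 of 6 tested Kv1 genes were higher and 3 lower. Of 3 Kv4 genes 2 were higher and 1 lower, and of 7 ether-a-go-go genes 1 was higher and 6 lower.

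The modifier subunits, which form no channel alone and alter Kv2 channels, differed in their leading gene between cerebellum and the forebrain regions. Kcng4 was listed at 129, 137, 144 and 133 TPM in control cerebellum and at 3.5 to 5.34 TPM in the 8 control forebrain libraries. It held 89.8% of the summed modifier level in cerebellum, 1.92% in neocortex and 2.15% in hippocampus, and was 4.52 ± 0.07 higher in cerebellum than in neocortex (SE; limma adjusted p = 1.2e-15). Kcnf1 and Kcnv1 had the largest shares in neocortex, 38.6% and 28.5%, and in hippocampus, 24.5% and 19.3%. Kcnv1 was listed at 70.9 to 75.8 TPM in control neocortex and at most at 0.173 TPM in control cerebellum (-6.10 ± 0.06, SE; limma adjusted p = 3.05e-18). Of 9 tested modifier genes, 4 were higher and 4 lower in hippocampus than in neocortex. Kcng2 had the largest difference upwards, at 21.0 to 24.5 TPM in control hippocampus against 4.08 to 4.84 TPM in control neocortex (2.13 ± 0.07, SE; limma adjusted p = 3.96e-11).

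Inward rectifiers of the Kir2 group, strong rectifiers that hold the resting potential, included the member with the largest difference between control cerebellum and neocortex. Kcnj4 was listed at 169, 165, 166 and 171 TPM in control neocortex, at 70.5 to 85 TPM in control hippocampus and at 0.444 to 0.615 TPM in control cerebellum. Its difference between cerebellum and neocortex was -6.78 ± 0.06 (SE; limma adjusted p = 1.49e-18), a value that the added 1 TPM makes smaller than the ratio of the levels. Kcnj12 led in cerebellum, with 95.7% of the summed Kir2 level there against 5.61% in neocortex, and was 2.73 ± 0.13 higher in cerebellum (SE; limma adjusted p = 1.25e-10). Kcnj10, the astrocyte and oligodendrocyte inward rectifier, was the highest of the 14 inward rectifiers over all libraries, and Kcnj9, a G-protein-gated subunit, lies 11892 bases from it on chromosome 1. Kcnj6, another G-protein-gated subunit, was 0.91 ± 0.09 higher in hippocampus than in neocortex (SE; limma adjusted p = 8.64e-07).

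Sums of leak and ion-activated channels were highest in cerebellum, but their genes moved both ways: against neocortex, 5 of 9 tested 2-pore-domain genes were higher and 4 lower, and 2 of 7 ion-activated pores were higher and 4 lower. The 2-pore-domain family summed to 484 ± 20.7 TPM in control cerebellum and 247 ± 5.72 TPM in control neocortex (SD, n = 4), and Kcnk1 made up about the same part in each region (46.9% to 52.4%). Kcnk10 and the acid-sensitive Kcnk3 were 2.80 ± 0.06 and 2.13 ± 0.09 higher in cerebellum than in neocortex (SE; limma adjusted p = 2.03e-14 and 2.02e-11). Kcnt1, a sodium-activated pore subunit, was listed at 240, 238, 236 and 270 TPM in control cerebellum, 41.5 to 49.5 TPM in neocortex and 23.4 to 31.8 TPM in hippocampus, and its relative Kcnt2 held 0.185% of their summed level in cerebellum. Kcnma1, the BK channel pore, did not pass between cerebellum and neocortex (0.13 ± 0.06, SE; limma adjusted p = 0.0589), but passed, as higher in cerebellum, with a block for the replicate number. The calcium-activated SK and IK pores together had its lowest sum in cerebellum, 27.5 ± 0.683 TPM against 45.5 ± 1.25 TPM in hippocampus (SD, n = 4).

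The summed level of auxiliary subunits was highest in hippocampus although 8 of 11 tested genes were lower and 3 higher there than in cerebellum. The sum was 782 ± 24.5 TPM (SD, n = 4) against 513 ± 13.8 TPM in cerebellum (SD, n = 4). Kcnab2, the most abundant member of all, reached 343 ± 19.0 TPM in control hippocampus and 83.9 ± 11.3 TPM in control cerebellum (SD, n = 4). Kcnip2, a calcium-binding partner of Kv4 channels, was listed at 161 to 178 TPM in control hippocampus, 96.7 to 110 TPM in control neocortex and 1.32 to 2.2 TPM in control cerebellum, although the Kv4 pore gene Kcnd2 was highest in cerebellum (165 ± 2.43 TPM, SD, n = 4). Kcnip4 supplied 46.8% and Kcnip3 40.7% of the Kv channel-interacting protein level of the cerebellum.

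**Figure D2:**
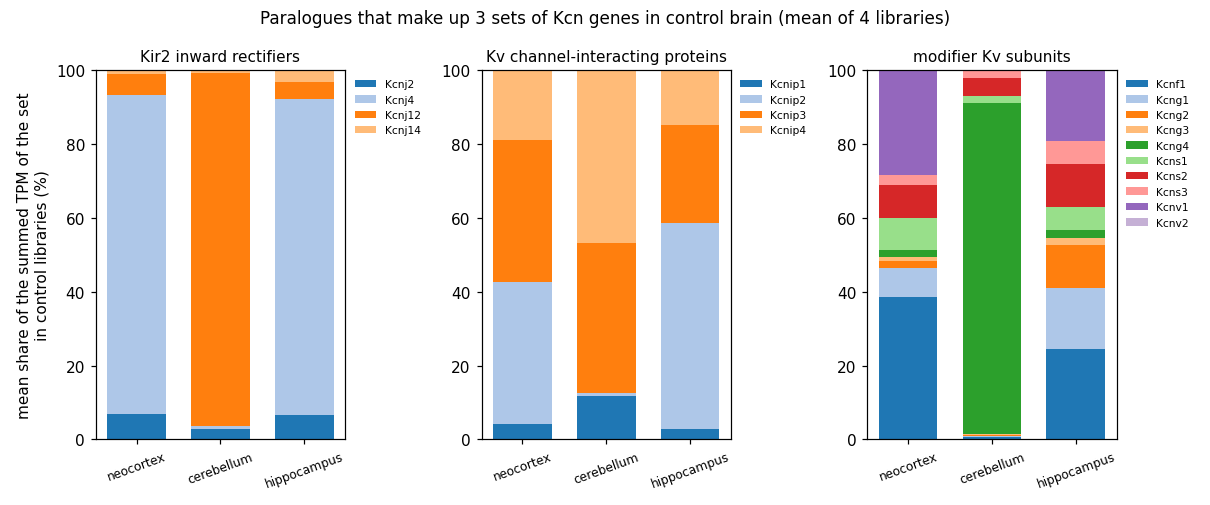
Stacked bars of the mean share (%, 4 control libraries per region) that each gene takes of the summed TPM of its set, for Kir2 rectifiers, Kv channel-interacting proteins and modifier Kv subunits. Kcnj12 takes 95.7% of Kir2 in cerebellum and Kcnj4 86.3% in neocortex, and the leading gene in cerebellum differs from both forebrain regions in each set.

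Promoter sequence from RefSeq (GRCm38.p6) was matched by symbol for 66 of the 91 members. The 250 bases before the annotated start are printed for Kcnj4 and Kcng4, the members with the largest negative and the largest positive difference between control cerebellum and neocortex, and for Kcna3, whose LLC difference is described further on. They are written 5′ to 3′ on the gene's strand, with GGGCGG in capitals on either strand (CCGCCC when reversed; the pattern bound by Sp1 factors) and CAGCTG, an E-box, also in capitals; the 2 patterns do not overlap.
Kcnj4, chr15:79505242-79505491, minus strand: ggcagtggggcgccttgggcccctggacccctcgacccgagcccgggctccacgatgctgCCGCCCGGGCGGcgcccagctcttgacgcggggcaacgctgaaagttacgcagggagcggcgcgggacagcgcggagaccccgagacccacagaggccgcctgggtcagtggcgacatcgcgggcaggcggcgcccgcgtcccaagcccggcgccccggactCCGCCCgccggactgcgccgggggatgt
Kcng4, chr8:119635681-119635930, minus strand: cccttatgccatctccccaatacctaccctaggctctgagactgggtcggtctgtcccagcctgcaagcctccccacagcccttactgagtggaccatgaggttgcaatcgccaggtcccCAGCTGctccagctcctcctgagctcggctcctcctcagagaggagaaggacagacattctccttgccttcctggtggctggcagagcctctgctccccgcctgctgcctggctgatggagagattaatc
Kcna3, chr3:107035912-107036161, plus strand: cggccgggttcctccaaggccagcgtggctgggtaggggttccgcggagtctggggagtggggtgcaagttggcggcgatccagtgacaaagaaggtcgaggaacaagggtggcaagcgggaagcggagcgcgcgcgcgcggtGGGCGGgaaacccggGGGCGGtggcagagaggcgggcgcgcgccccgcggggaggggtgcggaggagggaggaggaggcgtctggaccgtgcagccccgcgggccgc
The Kcnj4 and Kcna3 windows were 77.2% and 74.4% G or C with 35 and 31 CpG, and held 3 and 2 matches to the Sp1 pattern. The Kcng4 window was 60.4% G or C with 4 CpG, no match to the Sp1 pattern and 1 to the E-box. The Sp1 pattern was found in 45.1% of 91 member entries and in 32.7% of 32851 entries for all genes. The E-box was found in 23.1% and 13% of them. The 91 member entries belong to 66 members, so some genes are counted more than once. Member entries had a median of 58.8% G or C, against 52.4% over all entries, and the part of this in the matches was not tested. Such matches describe letters only.

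The LLC comparisons called few members. In neocortex, 7 of 73 tested members passed (limma adjusted p under 0.05), 3 higher and 4 lower, which is 9.59% of the members against 8.54% of all genes tested (5.59% higher and 2.95% lower). In cerebellum 1 of 62 passed (1.61% against 2.5%, of which 1.23% higher and 1.27% lower), and in hippocampus 1 of 73 (1.37% against 3.61%, of which 2.58% higher and 1.03% lower), both lower. All 4 LLC libraries lay above all 4 controls for 7 members (neocortex), 2 (cerebellum) and 5 (hippocampus), beside shares over all genes that follow in the same order (10.9%, 6.42% and 8.95%), and below them for 10, 7 and 3 (6.18%, 10.3% and 4.81% of all genes). The shares called in either direction lay near or below the background in each region. The median change over the members was -0.03 in neocortex, -0.12 in cerebellum and -0.0030 in hippocampus, against 0.01, -0.04 and 0.0079 over all genes tested. The region with the highest mean was the same in LLC as in control mice for 68 of the 73 members; the exceptions were Kcna6, Kcnj11, Kcnma1, Kcnn1 and Kcnq3.

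Kcna3 had the largest LLC difference of the members that passed in any region. It encodes a Kv1 pore subunit known from neurons and from immune cells, and lies on chromosome 3 (mm10, 107036169 to 107038070), 63076 bases from Kcna2. In cerebellum it was listed at 0.316, 0.813, 0.878 and 0.456 TPM in LLC and at 3.23, 4.58, 2.42 and 1.74 TPM in control libraries. In hippocampus it was listed at 0.592, 1.04, 0.8288 and 0.96 TPM in LLC and at 2.52, 1.8, 2.39 and 2.04 TPM in control libraries. In both regions every LLC library lay below every control library, and the LLC levels were about 1 TPM or less. Only through the control libraries did Kcna3 reach the mean of 1 TPM needed for testing in these regions. Its calls there are therefore not independent of the filter. The same holds for the differences in LLC effect that involve these regions, since testing needed that mean in each region compared. In neocortex, where the gene is higher, the LLC libraries held 12.9, 12.3, 10.5 and 12.4 TPM and the controls 12.8, 14.7, 13.1 and 11.5 TPM, so that the groups overlapped.

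The log2 fold change of Kcna3 was -1.27 ± 0.22 in cerebellum (SE; limma adjusted p = 0.0266) and -0.78 ± 0.12 in hippocampus (SE; limma adjusted p = 0.0179), with the LLC libraries below the controls in 4 of 4 cases each. The LLC effect differed between cerebellum and neocortex by -1.17 ± 0.22 (SE; limma adjusted p = 0.0178), 1 of 61 tested members or 1.64%, against 0.646% of all genes; at an unadjusted p under 0.05 there were 10 members, beside 12.9% of all genes. For hippocampus against neocortex the difference in effect was -0.68 ± 0.22 (SE) and did not pass (limma adjusted p = 1, unadjusted p = 0.00615); no gene of any kind passed in that comparison, for which 271 genes (1.91%), 3 of them members, had an unadjusted p under 0.05. In cerebellum the call was lost without LLC library 2 or 3 or control library 14, 15 or 16 (limma adjusted p 0.0581 to 0.0974), and in hippocampus without control library 14 or 16 (limma adjusted p 0.0561 and 0.0527), with log2 fold changes of -1.09 to -1.44 and -0.71 to -0.84 over all such fits. Without the cerebellar LLC library 1 that stood apart, Kcna3 differed by -1.18 in cerebellum (limma adjusted p = 0.0174), and Kcnh7, Kcnj16, Kcnma1 and Kcnt1 passed beside it, 5 members against 8.84% of all genes. The difference between cerebellum and neocortex was lost without neocortex LLC library 2 or control library 17 (limma adjusted p 0.0533 and 0.0503). Fits of this kind made more calls among unchanged genes than the set rate on simulated data. Marker sums of microglia, cells in which Kcna3 is known to be expressed, were 265 to 355 TPM in LLC and 276 to 319 TPM in control cerebellum, and 427 to 667 TPM in LLC and 546 to 580 TPM in control hippocampus; their part in the result was not tested.

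Of the other voltage-gated genes, Kcna6, Kcnv1 and Kcnh7 were lower. In the same neocortex comparison 5 of 12 pan-neuronal markers were lower and 0 higher (sums of 4744 to 5336 TPM in LLC and 5359 to 5492 TPM in control libraries), while 12 of 14 endothelial and 6 of 7 tested erythrocyte markers were higher and 1 erythrocyte marker was lower; their part in the changes of channel genes in neocortex was not tested. Kcna6, a Kv1 pore subunit, was listed at 44.6, 44.7, 41.5 and 53.7 TPM in LLC and at 56.6, 59.9, 55.0 and 60.9 TPM in control neocortex. Its log2 fold change there was -0.33 ± 0.07 (SE; limma adjusted p = 0.0260), and no LLC library reached the controls. An annotated antisense transcript shares up to 2355 bases of exon with Kcna6, and the use of strand in the counting is unknown here. Kcnv1, the modifier subunit, was listed at 60.3, 65.0, 59.4 and 68.9 TPM in LLC and 70.9, 75.8, 73.3 and 73.0 TPM in control neocortex, and fell by 0.21 on the log2 scale (limma adjusted p = 0.0360).

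Kcnh7, an ERG-type pore subunit, passed only when the 3 regions were averaged (-0.29 ± 0.05, SE; limma adjusted p = 0.00964). Its LLC libraries held 28.9, 30.9, 32.3 and 33.6 TPM in neocortex and 2.62, 1.62, 1.34 and 1.65 TPM in cerebellum, against 38.4, 38.2, 34.5 and 33.7 TPM and 3.01, 3.21, 2.79 and 2.44 TPM in the controls. In hippocampus they held 8.22, 8.82, 11.4 and 7.59 TPM against 9.61, 10.3, 10.2 and 11.5 TPM. The LLC and control values overlapped in hippocampus, and lay close together in neocortex, where 33.6 TPM was the highest LLC and 33.7 TPM the lowest control value. In cerebellum LLC library 1 lay above control 17, and the other LLC libraries lay below every control. Kcnh7 shares up to 696 bases of exon with Gca on the other strand.

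Of the ion-activated pores, Kcnt1 was higher. It was listed at 59.0, 61.9, 61.9 and 56.8 TPM in LLC and at 49.5, 41.5, 47.1 and 47.9 TPM in control neocortex. The log2 fold change was 0.36 ± 0.06 (SE; limma adjusted p = 0.00935) and all 4 LLC libraries exceeded all 4 controls. Kcnt1 was the one member called in neocortex whichever library was left out. The other 6 neocortex calls were lost without any single library except LLC 4, and without LLC 4, 22 members passed, 9 higher and 13 lower, against 26.5% of all genes. Library LLC 4 was the one whose erythrocyte marker sum lay nearest the controls; the part of this in the calls was not tested.

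Kcnma1, the BK channel pore that repolarises Purkinje and other neurons, had a wide spread. In cerebellum it was listed at 9.88, 35.8, 40.0 and 38.6 TPM in LLC and at 55.7, 63.0, 59.5 and 57.0 TPM in control libraries. The groups did not overlap, the lowest value being that of LLC library 1, and the difference of -1.07 did not pass (limma adjusted p = 0.121). In hippocampus the LLC libraries held 28.1, 36.3, 32.7 and 29.0 TPM and the controls 41.4, 39.5, 44.7 and 36.6 TPM (-0.36 ± 0.09, SE; limma adjusted p = 0.0533, not passing). In neocortex the means were 53.5 TPM in both groups. Over the average of the 3 regions it passed with -0.48 ± 0.14 (SE; limma adjusted p = 0.0477), or -0.31 (limma adjusted p = 0.0129) without LLC number 1; without LLC number 2 or 3 or any one control number it did not pass.

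Among the inward rectifiers, Kcnj12 was listed at 8.77, 8.36, 9.27 and 9.7 TPM in LLC and at 11.4, 10.9, 10.5 and 10.8 TPM in control neocortex (-0.25 ± 0.06, SE; limma adjusted p = 0.0293). Its LLC libraries were all below the controls there. Kcnj16, a partner of Kcnj10 in glia and other cells, was listed at 25.9, 21.8, 21.3 and 25.8 TPM in LLC and at 30.0, 31.1, 31.1 and 27.9 TPM in control cerebellum. In hippocampus its LLC libraries held 14.4, 18.5, 14.9 and 20.1 TPM and the controls 21.7, 23.6, 22.3 and 21.1 TPM. Both sets of groups were separate, neither region passed alone (limma adjusted p = 0.0640 in cerebellum), and the average of the 3 regions was -0.28 ± 0.07 (SE; limma adjusted p = 0.0260). Beside it, 2 of 10 astrocyte markers were higher and 1, the water channel gene Aqp4, lower over that average, and 2 of 12 oligodendrocyte markers were lower; their part in the result was not tested.

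The leak channel Kcnk13, known from microglia, was listed at 6.3, 6.81, 5.86 and 7.62 TPM in LLC and at 8.54, 9.6, 7.76 and 8.09 TPM in control neocortex (-0.31 ± 0.08, SE; limma adjusted p = 0.0480). Its lowest control lay just above its highest LLC library. Of 10 microglia markers 0 passed in neocortex, with sums of 497 to 682 TPM in LLC and 593 to 636 TPM in control libraries, and among the LLC libraries, number 4 was highest in both. The median change of these markers there was -0.15, against 0.01 over all genes tested, and their part in the result was not tested. Kcnk6, a leak channel of low level, passed only over the average of the 3 regions (0.27 ± 0.06, SE; limma adjusted p = 0.0222). In cerebellum it was listed at 2.35, 1.92, 1.59 and 1.44 TPM in LLC and at 1.2, 1.36, 1.28 and 0.876 TPM in control libraries, without overlap.

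The Kv beta subunits, which bind Kv1 pores, were the auxiliary genes that passed. Kcnab3 was listed at 97.6, 90.2, 113 and 77.7 TPM in LLC and at 74.4, 68.6, 74.3 and 64.6 TPM in control neocortex (0.41 ± 0.10, SE; limma adjusted p = 0.0354). Kcnab2 was listed at 257, 246, 275 and 232 TPM in LLC and at 227, 217, 212 and 224 TPM in control neocortex (0.20 ± 0.05, SE; limma adjusted p = 0.0439). Both were higher in 4 of 4 LLC libraries than in any control. In hippocampus Kcnab2 held 415, 388, 372 and 396 TPM in LLC and 367, 327, 328 and 349 TPM in control libraries, and did not pass (limma adjusted p = 0.0610). The third gene, Kcnab1, had means of 52.9 and 53.7 TPM in LLC and control neocortex.

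**Figure D3:**
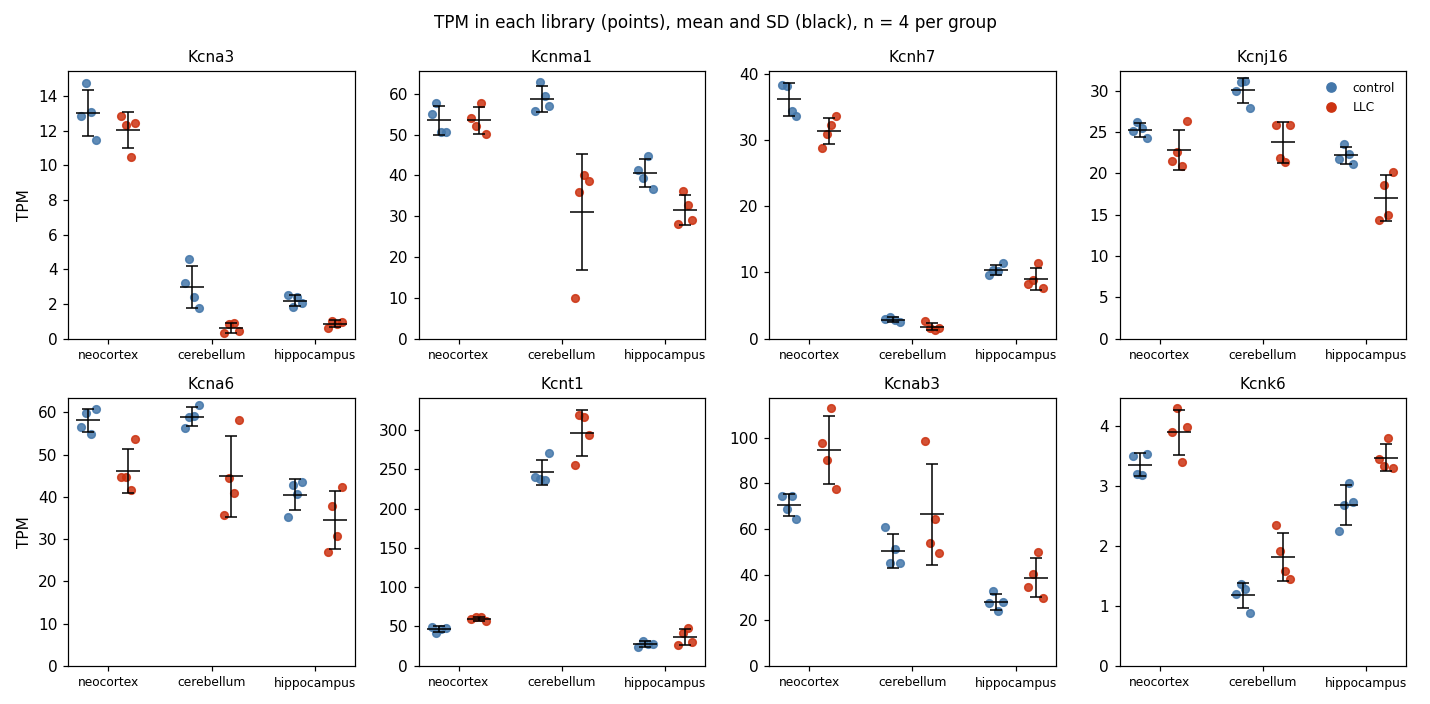
TPM of Kcna3, Kcnma1, Kcnh7, Kcnj16, Kcna6, Kcnt1, Kcnab3 and Kcnk6 in each library (points; coloured by treatment) by region, with mean and SD (n = 4). Kcna3 is separated in cerebellum and hippocampus and overlaps in neocortex, and the lowest cerebellar Kcnma1 point is LLC library 1 at 9.88 TPM.

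Averaged over the regions, which uses the same libraries, 7 of 73 members passed (9.59% against 13.1% of all genes, 7.66% higher and 5.45% lower), with Kcnk6, Kcnt1 and Kcnab3 higher and Kcna3, Kcnh7, Kcnj16 and Kcnma1 lower. Kcna3 (-0.72 ± 0.09, SE; limma adjusted p = 0.00396) and Kcnh7 passed whichever replicate number was left out, and the other 5 each lost the call in at least 1 such fit. The count fell to 2 without LLC number 2 or control number 14, 15 or 16, to 3 without LLC number 3 or control number 17, and rose to 19 without LLC number 4. The shares of all genes in these fits are not given here, so these counts are not read as a result about the members. For the difference in LLC effect between hippocampus and cerebellum 0 of 61 members passed (0.0936% of all genes did), with 15 members at an unadjusted p under 0.05 (12.3% of all genes were); Kcnk2 and Kcnip4 were among those of smallest p (limma adjusted p 0.145 and 0.220).

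**Figure D4:**
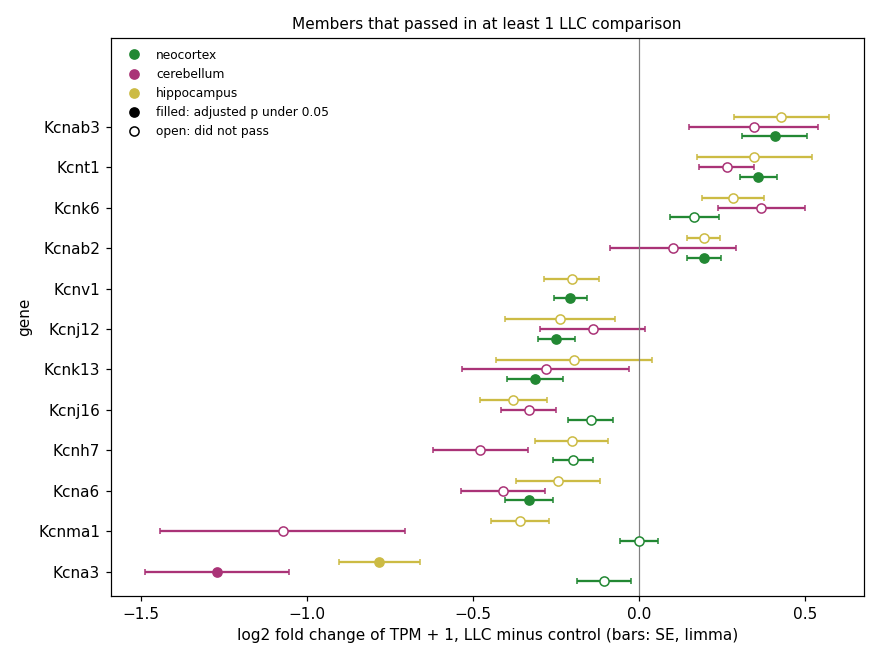
Log2 fold change (LLC minus control, log2(TPM + 1); bars are SE) of the 12 members that passed in at least 1 LLC comparison, in neocortex, cerebellum and hippocampus. Filled points passed at an adjusted p under 0.05 in that region: 7 in neocortex, 1 in cerebellum and 1 in hippocampus; Kcnv1 was not tested in cerebellum.

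The choroid plexus is the epithelium that makes cerebrospinal fluid. Kcnj13 and Kcne2, a rectifier and a KCNE subunit, are both known from that epithelium. In hippocampus they varied between libraries of the same group with the sum of 8 choroid plexus markers. In LLC hippocampus Kcnj13 was listed at 1.39, 38.2, 1.41 and 1.72 TPM where the marker sums were 141, 8397, 146 and 308 TPM. In control hippocampus it was listed at 18.7, 2.97, 0.346 and 36.6 TPM where the sums were 3046, 242, 202 and 4894 TPM. The libraries with most Kcnj13 were those with most choroid plexus marker transcripts in both groups. Kcne2 did the same, at 0.239, 18.4, 0.609 and 0.578 TPM in LLC and 11.7, 0.685, 0.373 and 18.04 TPM in control hippocampus. In cerebellum Kcne2 was listed at 16.2, 25.8, 16.2 and 24.1 TPM in LLC and at 30.3, 30.5, 28.1 and 33.7 TPM in control libraries, a difference that did not pass (-0.58 ± 0.15, SE; limma adjusted p = 0.0718). The marker sums there were 5032 to 9229 TPM in LLC and 5406 to 6421 TPM in control libraries. Between these groups Kcne2 did not follow the sum. None of the 8 markers passed in any region with limma, and their median was -0.03 in cerebellum. Kcnj13 shares up to 355 bases of exon with Gigyf2 on the other strand.

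**Figure D5:**
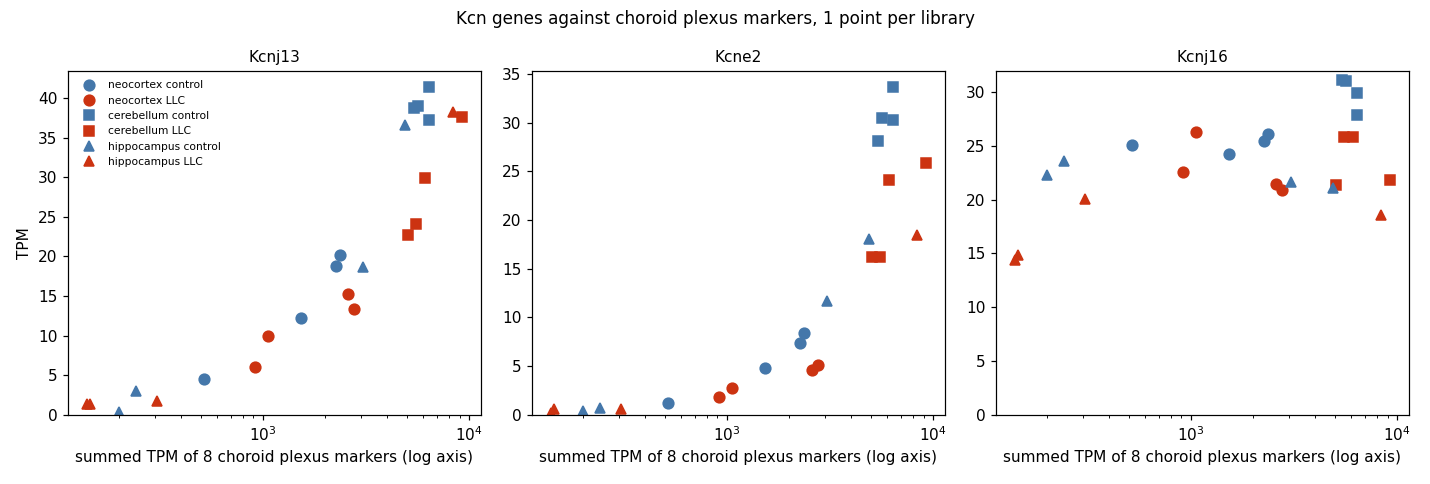
TPM of Kcnj13, Kcne2 and Kcnj16 against the summed TPM of 8 choroid plexus markers (log axis), 1 point per library, by region (shape) and treatment (colour). Across the regions Kcnj13 and Kcne2 climb with the marker sum, whereas Kcnj16 stays between 14.4 and 31.1 TPM throughout. In cerebellum Kcne2 is lower in every LLC library than in any control, although the marker sums of these groups overlap.

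Other genes of potassium handling and excitability gave few calls. Of 23 tested partner proteins of Kv, BK and ATP-sensitive channels, Abcc9, a sulphonylurea receptor subunit expressed in pericytes, was higher in LLC in all 3 regions, by 1.02, 0.59 and 0.85 in neocortex, cerebellum and hippocampus (limma adjusted p 0.0124, 0.0458 and 0.0358). Abcc9 is itself on the list of 10 mural cell markers. Of these 10, Abcc9 included, 6 were higher in neocortex and 2, Abcc9 and Vtn, in hippocampus. In cerebellum Abcc9 was the 1 of 10 that passed. The part of mural cells in the result was not tested. Lingo1 was lower in neocortex (-0.30, limma adjusted p = 0.0333). Of 14 tested potassium pumps and cotransporters Slc12a7 was higher in neocortex (0.33, limma adjusted p = 0.0445), and of 15 calcium channel genes Cacna1h was (0.22, limma adjusted p = 0.0354). No tested sodium channel gene (9 in neocortex, 7 in cerebellum, 9 in hippocampus) and no pacemaker or cyclic nucleotide-gated channel gene passed in a single region.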

How the data were processed

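Bulk RNA sequencing of 3 brain regions was used (24 libraries, 4 in each of 6 groups; Trizol extraction, a stranded mRNA kit and NovaSeq sequencing, per the labels' protocols). The authors deposited TPM values per gene symbol, so the number of reads behind a value is unknown and no counting interval can be given. Reads were placed on mm10, per the submitters' processing notes. Which aligner, counter, annotation and strand setting were used is not given in the sources used here. Because TPM is relative to the total, a few abundant genes can shift all others. No 2 libraries held identical values.

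From the deposited TPM, log2(TPM + 1) was computed here; the added 1 TPM makes changes of low genes smaller. Genes with a mean of at least 1 TPM in the libraries compared were tested with limma 3.58.1 (trend, R 4.3.3), two-sided, with Benjamini-Hochberg adjustment over all genes tested and a threshold of 0.05. LLC and control were compared within each region, over the average of the regions, and between regions; control regions were compared in pairs. Same-numbered control libraries of cerebellum and neocortex deviated together (correlations of 0.11 to 0.26), a pairing read from the data and not from the labels. On simulated data the control-region fits and the fits of region differences made more calls among unchanged genes than the set rate. Alternatives were another pseudocount, other filters, scalings, weights, a replicate block, a GC and length trend, 1 fit of all libraries, and leaving out each library. Named members are those that passed, those of smallest p where few passed, the largest regional differences and the most abundant. The members and the gene lists were chosen with earlier results of these data known. Coordinates come from GENCODE on mm10, and figures were drawn with matplotlib 3.10.9. A few genes are counted in the totals but not reported here by name.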

Additional observations from a re-analysis of the deposited data

Results flagged for a closer look

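Among 12 members that passed in an LLC comparison, 72 groups of 4 libraries were examined for 1 library far from the rest, and 4 were found. Chance gives about 1 in 20, a share close to the one found. In LLC cerebellum, library 1 was low for Kcnj12, at 49.5 TPM against 76.9 to 81.7 TPM in the others. The same library was low for Kcnma1, at 9.88 TPM against 35.8 to 40.0 TPM. It was high for Kcnv1, a gene of the forebrain, at 0.430 TPM against 0.0516 to 0.106 TPM. These values lie under the mean of 1 TPM needed for testing, and Kcnv1 was not tested in cerebellum. In control cerebellum, library 17 was high for Kcnt1, at 270.0 TPM against 236 to 240.2 TPM. Of the region differences, the LLC effect on Kcna3 in cerebellum was lower than that in neocortex by -1.17 (limma adjusted p = 0.0178). In cerebellum Kcna3 reached the mean of 1 TPM needed for testing only through its control libraries, so this call is not independent of the filter. The call was lost in 2 of 16 fits that each left out a library. On simulated data, fits of region differences made more calls among unchanged genes than the set rate.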

How the results depend on the processing

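Member calls depended on single libraries and on the model, and with 4 libraries a group and unknown depth, calls near the threshold are not firm. Counts in this section without a share of all genes beside them are not read as a result about the members. In neocortex 7 members passed, against 1 with no filter, 27 with library weights (29.9% of all genes), 12 with a GC and length trend removed, 0 with all 24 libraries in 1 fit, and 1 to 22 leaving out a library. In cerebellum 1 passed, against 0 with a filter at 5 TPM, where Kcna3 was not tested, and 0 with no filter. It was 2 with median-ratio, quantile or GC and length adjustment, 21 with library weights (39.4% of all genes) and 10 in the joint fit. Leaving out a library gave 0 to 5: 5 without LLC 1 or LLC 4, and 0 without LLC 2 or 3 or control 14, 15 or 16. In hippocampus 1 passed, against 4 with median-ratio, quantile or library weights, 2 with robust estimation or the joint fit, 5 with the GC and length trend, and 0 to 6 leaving out a library (6 without LLC 4). Over the average 7 passed, against 4 with no filter, 21 with library weights, and 2 to 19 leaving out a replicate. The cerebellum and neocortex difference in effect (1 member) gave 0 with the 5 TPM filter, where Kcna3 was not tested, and 0 to 3 leaving out a library; hippocampus and cerebellum (0) gave 0 to 1. Apart from the loss of Kcna3 to the 5 TPM filter, the cause of these changes was not tested. Control regions stayed at 57 to 72, 52 to 60 and 62 to 76 calls, and no value tested changed direction.

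Beside the title number, the sample descriptions carry a second number, which LLC and control libraries have in common. Between LLC and control this description number did not pair the libraries. Correlations of same-numbered deviations ran from -0.25 to 0.46, with 5 of 12 above 0.1. Across regions libraries of the same title number tended to deviate together. Here 8 of 12 LLC pairs (up to 0.63) and 9 of 12 control pairs were above 0.1, and 9 and 10 of 12 matched their own number best. All 4 pairs exceeded 0.1 only for control cerebellum and neocortex. Pairing by title number is a hint from the data, and the labels do not say that these libraries share an animal. With a block by the description number, 3 members passed in neocortex, 2 in cerebellum, 1 in hippocampus and 10 over the average. With a block by the title number, 66, 60 and 71 passed between control regions, and the differences in effect gave 1, 0 and 0. The block by title number added Kcnma1 between control cerebellum and neocortex, and left the Kcna3 difference in effect at a limma adjusted p of 0.0150.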
